A study of Mus musculus with 12 samples.

Results

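Plasma cells are the end stage of the B cell line and secrete antibody. Each antibody pairs heavy chains with light chains; the heavy chain's constant region sets its class, and the small joining chain links several units of IgM or IgA into one larger molecule. The transcription factors that install this state silence B cell genes and, with the unfolded protein response, enlarge the secretory machinery. In mouse fat these cells and their B cell precursors sit in the stromal fraction, in small lymphoid clusters and in any lymph node embedded in the depot.

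The genes described here are 7 that mark these cells and their product: Igha and Ighm, the heavy chain constant regions of IgA and IgM; Jchain, the joining chain; Mzb1, an endoplasmic reticulum chaperone of antibody-secreting cells; Pou2af1 and Prdm1, transcriptional regulators of B and plasma cells; and Sdc1, the surface proteoglycan CD138. They were drawn from 18194 genes on the array. Their probe sets were picked by gene symbol, and all 26 that name one of them are accounted for, of 45101 in the table. The 7 symbols themselves were chosen by results of these same arrays, since the cold changes were already known when the group was drawn up. The changes and adjusted p-values below therefore describe these arrays and are no independent support for the group. Of the 26, 22 name a member alone (11 for Ighm, 4 for Sdc1, 3 for Igha and 1 for each of the others), and 4 name Ighm together with other heavy chain genes. A probe set was tested when it exceeded log2 4 on at least 3 arrays, which 19 of the 22 did. The other 3 all name Ighm and stayed between 2.50 and 3.71 on every array.

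The RNA came from white fat of males of the strain C57/BL6, and the labels name no transgene or deletion. The labels give an age of 6 to 8 weeks for every array, at 1 week and 5 weeks alike, so it is not taken here as the age at sampling. There were 3 arrays in each of 4 groups: mice kept at 4 °C for 5 weeks (cold, 5 weeks), their controls (control, 5 weeks), mice kept at 4 °C for 1 week (cold, 1 week) and their controls (control, 1 week). The controls are labelled 30 °C in the titles but room temperature in the source names; mice had been housed at 22 °C, and those moved to 4 °C were first adapted to 18 °C for 1 to 3 weeks. The labels give neither the fat depot nor whether each array of a group stands for its own animal, so p-values measure the spread between arrays, which may be technical.

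All values are GCRMA log2 signals, so that a difference of 1 is a doubling on the scale of the table, and a level is compared between groups only within a probe set. Differences are cold minus control, or 5 weeks minus 1 week, with the standard error (SE) of a limma model over all 26510 tested probe sets, n = 3 arrays per group. A probe set is said to have risen or fallen when its Benjamini-Hochberg adjusted p over that whole table was under 0.05. Array medians ran from 4.79 to 4.89. White adipocyte markers stood at a mean of 13.0 to 13.4 on every array, as the tissue label says. Arrays did stand apart in other ways. The control arrays at 5 weeks resembled each other most, with a median within-group SD of 0.102 against 0.146 to 0.167 in the other groups. The mean of 8 skeletal muscle markers was 4.25 to 4.52 in cold and 9.03 to 9.26 in control at 5 weeks, and 4.62 to 10.5 in cold (10.5 on replicate 2) and 4.89 to 5.70 in control at 1 week. The signal of the Gapdh control probe sets at the 3′ end minus the 5′ end, a measure of RNA integrity and labelling, was 0.19 to 3.01 in cold and -0.08 to 0.03 in control at 5 weeks, and -0.08 to 0.34 in cold and 0.90 to 3.12 in control at 1 week. The same measure for the Actb control probe sets was 1.84 to 2.80 in cold and 1.04 to 1.16 in control at 5 weeks. At 1 week it was 1.01 to 1.33 in cold and 1.22 to 1.35 in control. By Actb the 5-week cold arrays thus stood above all others, and only the Gapdh measure was fitted as a covariate below.

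Promoter sequences were available for 4 of the 7 genes, and 3 are shown because Pou2af1 encodes the coactivator OCA-B, which acts with Oct-1 and Oct-2 at the octamer motif, while Prdm1 and Jchain are genes of the plasma cell programme. They are the RefSeq windows of 300 bases (250 before and 50 after the gene start, GRCm38.p6) at chr9:51213440-51213739 on the plus strand for Pou2af1, chr10:44458699-44458998 on the minus strand for Prdm1 and chr5:88527848-88528147 on the minus strand for Jchain, each written 5′ to 3′ along the gene.
Pou2af1: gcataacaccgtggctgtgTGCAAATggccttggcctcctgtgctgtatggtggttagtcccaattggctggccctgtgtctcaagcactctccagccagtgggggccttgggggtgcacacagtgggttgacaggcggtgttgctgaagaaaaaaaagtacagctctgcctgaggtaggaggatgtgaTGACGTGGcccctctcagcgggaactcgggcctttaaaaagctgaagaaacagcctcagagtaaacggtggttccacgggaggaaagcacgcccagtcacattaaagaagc
Prdm1: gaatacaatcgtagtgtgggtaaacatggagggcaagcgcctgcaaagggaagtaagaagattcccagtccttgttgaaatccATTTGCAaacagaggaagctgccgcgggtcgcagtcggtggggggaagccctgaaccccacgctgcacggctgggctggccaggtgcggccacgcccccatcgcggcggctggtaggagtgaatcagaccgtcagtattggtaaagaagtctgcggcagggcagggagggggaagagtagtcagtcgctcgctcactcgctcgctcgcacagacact
Jchain: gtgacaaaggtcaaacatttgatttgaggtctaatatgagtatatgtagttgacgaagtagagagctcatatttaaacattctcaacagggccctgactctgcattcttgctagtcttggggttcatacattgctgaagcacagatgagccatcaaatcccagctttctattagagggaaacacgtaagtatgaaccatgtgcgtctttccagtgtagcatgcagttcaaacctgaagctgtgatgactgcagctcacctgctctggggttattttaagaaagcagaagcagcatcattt

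Capitals mark matches to 3 motifs searched on both strands: the octamer ATGCAAAT, its 7 last letters TGCAAAT (which every octamer also holds) and TGACGTGG, the unfolded protein response element bound by XBP1 and ATF6. The full octamer was in none of the 4 windows and in 1.74% of 32851 RefSeq promoter windows of the same length. The 7-letter core, found in 4.02% of them, began 231 bases before the gene start of Pou2af1 on the plus strand and 167 bases before that of Prdm1 on the minus strand. The unfolded protein response element, found in 0.676% of windows, began 61 bases before the start of Pou2af1. Jchain and Sdc1 held none of the 3. These are matches of letters and do not show that a site is bound.

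The heavy chain of IgA set the widest distance between the groups. Igha fell in the cold at both times, about 5-fold to 7-fold at 5 weeks and by less than 2-fold at 1 week, and it was also several times higher at 5 weeks than at 1 week among the controls. All 3 of its probe sets behaved this way.

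On Igha probe set 1421653_a_at the log2 signal was 9.32, 9.31 and 9.40 in cold at 5 weeks, against 11.66, 11.65 and 11.81 in control at 5 weeks. At 1 week it was 8.25, 7.87 and 7.98 in cold, against 8.52, 9.32 and 8.77 in control. Every cold array lay below every control array of the same week, and the 5-week control arrays lay more than 2 log2 units above all others. The difference was -2.36 (SE 0.18), a 5.14-fold lower signal, at 5 weeks (adjusted p = 1.01e-05, limma) and -0.84 (SE 0.18), a 1.79-fold lower signal, at 1 week (adjusted p = 0.0031, limma). From highest to lowest the groups ran control at 5 weeks, cold at 5 weeks, control at 1 week and cold at 1 week. The middle pair overlapped, since 1 control array at 1 week reached 9.32.

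The other probe sets of Igha, whose "x" suffix marks probes that can also bind related transcripts, gave the same order of groups. Probe set 1425763_x_at read 8.11, 8.30 and 8.31 in cold and 10.69, 10.83 and 10.98 in control at 5 weeks, then 7.31, 7.30 and 6.56 in cold and 7.60, 8.47 and 7.91 in control at 1 week. Probe set 1429381_x_at read 7.99, 7.78 and 7.71 in cold and 10.57, 10.73 and 10.80 in control at 5 weeks, then 7.16, 6.45 and 6.82 in cold and 7.22, 8.01 and 7.70 in control at 1 week. Again no cold array reached the lowest control array of its week. Their differences were -2.59 (SE 0.23) and -2.88 (SE 0.21) at 5 weeks, or 6.03-fold and 7.35-fold lower (adjusted p = 3.4e-05 and 8.3e-06, limma). At 1 week they were -0.94 (SE 0.23) and -0.83 (SE 0.21) (adjusted p = 0.0080 and 0.0082, limma).

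**Figure D1:**
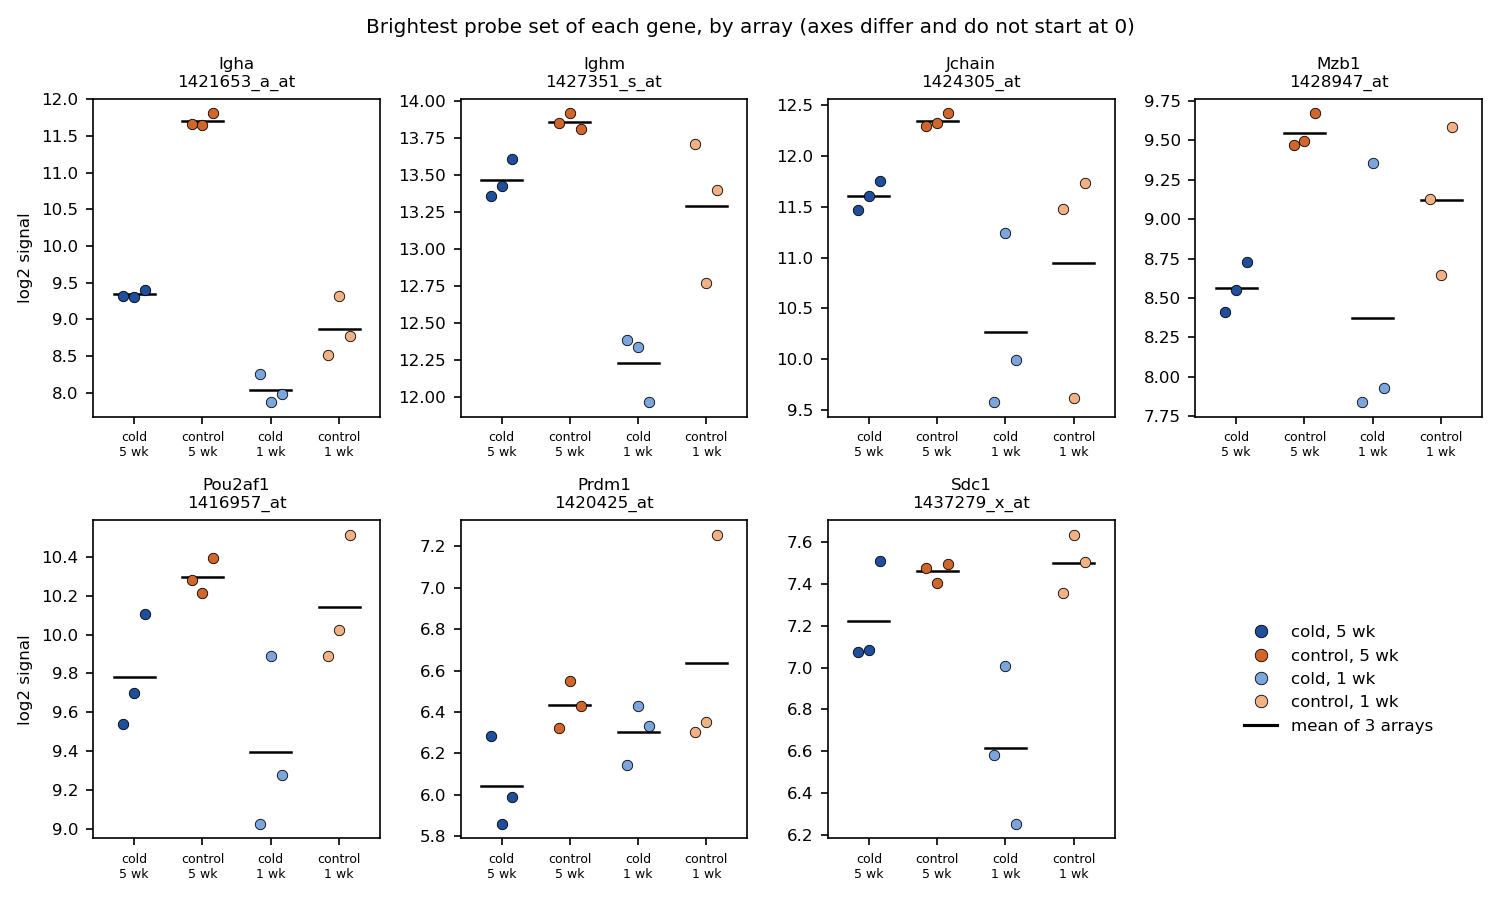
Log2 signal of the brightest probe set of each of the 7 genes on the 12 arrays; points are arrays, black lines are means of 3 arrays, and the vertical axes differ between panels and do not start at 0. Igha shows the widest gap, with cold arrays at 9.31 to 9.40 and control arrays at 11.65 to 11.81 at 5 weeks, whereas cold and control arrays of Jchain and Mzb1 overlap at 1 week.

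The size of the cold difference in Igha itself changed with time. The difference at 5 weeks minus that at 1 week was -1.53 (SE 0.25), -1.66 (SE 0.33) and -2.04 (SE 0.30) for the 3 probe sets, in the order above (adjusted p = 0.0059, 0.010 and 0.0043, limma interaction term). The controls differed more between the times than the cold groups did. Between 5 weeks and 1 week the control difference was 2.84 (SE 0.18), 2.84 (SE 0.23) and 3.06 (SE 0.21), 7.14-fold to 8.33-fold higher at 5 weeks (highest adjusted p = 0.00018, limma). In the cold the same 3 differences were 1.31, 1.19 and 1.02, 2.02-fold to 2.48-fold (highest adjusted p = 0.0058, limma). The 5-week control arrays enter both the cold comparison at 5 weeks and the comparison of weeks among controls, so these results share samples. With the Gapdh measure as a covariate the 5-week cold difference of 1421653_a_at was -2.51, but that at 1 week was -0.60 and no longer passed (adjusted p = 0.11, limma), nor did the interaction, which was -1.91 (adjusted p = 0.15, limma) in a fit where 5 of 26510 probe sets passed. With the 3 control arrays at 5 weeks averaged and counted as 1, the interaction had an adjusted p of 0.084. The cold array with the highest muscle marker signal, replicate 2 at 1 week, had the lowest Igha signal of its group on 2 of the 3 probe sets (7.87 on 1421653_a_at), whereas the 5-week controls were high in both; any part of the muscle signal in the 5-week result was not tested.

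The heavy chain of IgM gave a divided picture across its 8 tested probe sets. At 5 weeks every cold array lay below every control array on all 8, yet 2 fell by the test. At 1 week 2 fell, 1 rose and 5 did not pass, and all 5 of those varied by more than 1 log2 unit within each 1-week group.

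The brightest, 1427351_s_at, read 13.36, 13.43 and 13.61 in cold and 13.85, 13.92 and 13.81 in control at 5 weeks. At 1 week it read 12.38, 12.33 and 11.96 in cold, against 13.71, 12.77 and 13.40 in control. The groups did not overlap at either time, and cold at 1 week was the lowest of the 4. The cold difference was -1.07 (SE 0.20), 2.09-fold lower, at 1 week (adjusted p = 0.0018, limma) and -0.40 (SE 0.20) at 5 weeks (adjusted p = 0.17, limma); the difference between these 2 values had an adjusted p of 0.13.

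Probe set 1427329_a_at read 12.95, 12.98 and 12.92 in cold and 13.73, 13.73 and 13.67 in control at 5 weeks, then 12.47, 12.56 and 12.22 in cold and 13.49, 12.79 and 13.31 in control at 1 week. It fell at both times by nearly the same amount, with no overlap: -0.76 (SE 0.16) at 5 weeks and -0.78 (SE 0.16) at 1 week (adjusted p = 0.0042 and 0.0025, limma). Both of these bright probe sets rose between 1 and 5 weeks in the cold, by 1.24 and 0.53 (adjusted p = 0.0021 and 0.029, limma), while their differences of 0.57 and 0.52 among controls did not pass (adjusted p = 0.16 and 0.11). The rise of 1427329_a_at in the cold did not pass without any 1 of the cold arrays but replicate 2 at 1 week (adjusted p 0.053 to 0.094), and its 5-week fall did not pass with the control arrays of that week averaged and counted as 1 (adjusted p = 0.098).

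A further 5 probe sets of Ighm, all dimmer, scattered more within the 1-week groups than within the 5-week groups. On 1425385_a_at the cold arrays at 1 week read 7.62, 12.16 and 10.58 and the control arrays 11.12, 9.03 and 12.66, whereas at 5 weeks they read 11.37, 11.47 and 11.06 in cold and 12.30, 12.27 and 12.37 in control. On 1425247_a_at the 1-week arrays read 7.68, 8.53 and 5.29 in cold and 6.58, 6.03 and 8.86 in control, beside 9.53, 9.44 and 9.10 in cold and 10.81, 10.72 and 10.61 in control at 5 weeks. Replicates of one group thus differed at 1 week by up to 4.54 log2 units on a single probe set, and cold and control overlapped. Probe sets 1425324_x_at, 1427756_x_at and 1427870_x_at had the same form. The cold differences of these 5 ran from -1.56 to -0.99 at 5 weeks and from -0.82 to 0.41 at 1 week, and none passed at either time (adjusted p 0.12 to 0.49 at 5 weeks and 0.47 to 0.99 at 1 week, limma).

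Of these 5, 4 rose between 1 and 5 weeks among the controls, by 2.73 to 3.64 (6.64-fold to 12.5-fold, adjusted p 0.0063 to 0.039, limma), with 1425385_a_at at 1.37 (adjusted p = 0.54). In the cold 1427870_x_at rose, by 1.73 (SE 0.45; adjusted p = 0.016; 0.053 without cold replicate 3 at 5 weeks and 0.057 without cold replicate 3 at 1 week), and the differences of the other 4 were 1.18 to 2.19 (adjusted p 0.062 to 0.42). Without any 1 of the control arrays at 5 weeks, the rises among controls of 1425324_x_at, 1427756_x_at and 1425247_a_at stayed at 2.67 to 3.67 but no longer passed, and calls over all 26510 probe sets went down to between 232 and 325 in those fits, against 883 with all arrays. They also did not pass without control replicate 2 at 1 week (2.69 to 2.99, adjusted p 0.077 to 0.14), nor did that of 1425247_a_at without control replicate 1 at 1 week (3.27, adjusted p = 0.067).

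Probe set 1452535_at was the only one of the 8 tested Ighm sets that passed as higher in cold at 1 week. It read 5.04, 5.63 and 5.71 in cold and 6.39, 6.58 and 6.55 in control at 5 weeks, against 5.95, 6.39 and 5.70 in cold and 5.41, 4.93 and 5.68 in control at 1 week. Cold lay below control at 5 weeks and just above it at 1 week, by 0.02 at the nearest pair of arrays. The difference was -1.05 (SE 0.23) at 5 weeks (adjusted p = 0.0065, limma) and 0.68 (SE 0.23) at 1 week (adjusted p = 0.037, limma), and the interaction was -1.72 (SE 0.33; adjusted p = 0.0086, limma). Among controls it rose by 1.17 (SE 0.23) between the weeks (adjusted p = 0.026, limma), and in the cold its difference was -0.55 (adjusted p = 0.10). The 5-week fall did not pass with the control arrays of that week averaged and counted as 1 (adjusted p = 0.12), nor did the interaction (adjusted p = 0.10), which also did not pass with the Gapdh covariate (-1.94, adjusted p = 0.26). The rise at 1 week no longer passed without cold replicate 1 or 2, without control replicate 1 or 2 (adjusted p 0.060 to 0.14), without the filter (adjusted p = 0.057) or with the Gapdh covariate (adjusted p = 0.13). The rise among controls no longer passed without any 1 of the 5-week arrays or replicate 2 at 1 week (adjusted p 0.072 to 0.096).

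**Figure D2:**
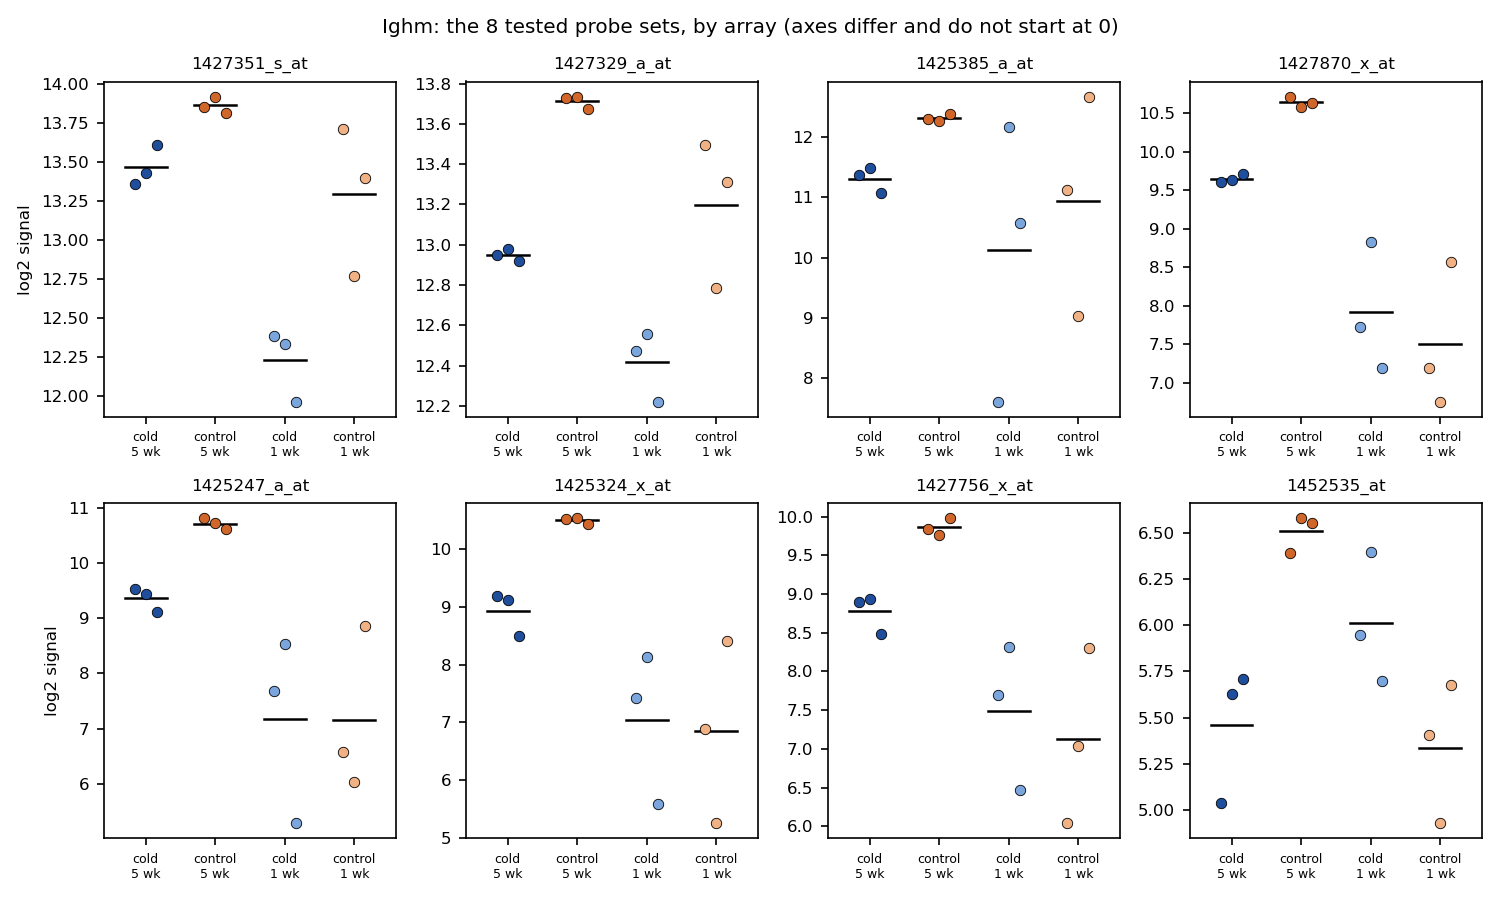
Log2 signal of the 8 tested probe sets of Ighm on the 12 arrays, from the brightest to the dimmest; points are arrays, black lines are means of 3 arrays, and the vertical axes differ and do not start at 0. The 5-week groups do not overlap on any of the 8, whereas the 1-week arrays of 1425385_a_at span 7.62 to 12.66.

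Among the 4 probe sets shared between Ighm and other heavy chain genes, 3 were tested and 1 stayed between 2.53 and 2.83. Probe set 1427851_x_at (Ighv1-72 and Ighm) read 5.97, 6.19 and 4.95 in cold and 7.20, 6.88 and 6.98 in control at 5 weeks, a fall of 1.32 (SE 0.26; adjusted p = 0.0033, limma); at 1 week its difference was -0.27 (adjusted p = 0.42). The other tested pair name Ighv14-2, Ighg3 and Ighm: 1427758_x_at and 1452538_at rose at 1 week by 1.41 and 0.52 (adjusted p = 0.025 and 0.026, limma), with differences of -0.50 and 0.20 at 5 weeks (adjusted p = 0.43 and 0.40). Reads of one heavy chain gene cannot be told from those of another on these sets, and they enter no count below.

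Jchain 1424305_at, which serves both IgM and IgA, read 11.46, 11.61 and 11.76 in cold and 12.29, 12.33 and 12.42 in control at 5 weeks. At 1 week it read 9.58, 11.24 and 9.99 in cold and 11.48, 9.62 and 11.73 in control. The 5-week groups were apart and tight. The 1-week groups overlapped, with 1 high cold array and 1 low control array, both replicate 2. The cold differences of -0.74 (SE 0.51) at 5 weeks and -0.68 (SE 0.51) at 1 week did not pass (adjusted p = 0.30 for each, limma); the model shares 1 estimate of spread over all 4 groups, so the scatter at 1 week also widens the SE at 5 weeks. Without control replicate 2 the 1-week difference was -1.34 (adjusted p = 0.020). Jchain stood 1.34 (cold) and 1.40 (control) higher at 5 weeks than at 1 week, all 5-week arrays above all 1-week arrays of the same treatment, and neither passed (adjusted p = 0.074 and 0.17).

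Mzb1 1428947_at, the chaperone that helps assemble and secrete IgM, read 8.41, 8.55 and 8.73 in cold and 9.47, 9.50 and 9.67 in control at 5 weeks, then 7.84, 9.36 and 7.93 in cold and 9.13, 8.65 and 9.58 in control at 1 week. Cold replicate 2 at 1 week again stood with the controls. The differences were -0.98 (SE 0.35) at 5 weeks and -0.74 (SE 0.35) at 1 week (adjusted p = 0.056 and 0.11, limma). Without that array the 1-week difference was -1.24 (adjusted p = 0.0017), and in a refit on 1 probe set per gene the 5-week difference passed (adjusted p = 0.046).

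Pou2af1 1416957_at read 9.54, 9.70 and 10.11 in cold and 10.28, 10.21 and 10.39 in control at 5 weeks, then 9.03, 9.89 and 9.28 in cold and 9.89, 10.02 and 10.51 in control at 1 week. No cold array passed a control array of its week, though the nearest pair at 1 week both read 9.89. It fell at 1 week by 0.74 (SE 0.23; adjusted p = 0.023, limma), 1.68-fold, and its difference at 5 weeks was -0.51 (SE 0.23; adjusted p = 0.12). The 1-week fall did not pass without cold replicate 1 or 3 or control replicate 3 (adjusted p 0.068 to 0.090), nor with arrays centred on their median (adjusted p = 0.052) or the Gapdh measure as a covariate (-0.29, adjusted p = 0.50), a setting in which the 5-week difference did pass (-0.79, adjusted p = 0.029).

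Prdm1 1420425_at, which encodes Blimp-1, the repressor that commits B cells to the plasma cell state, read 6.28, 5.86 and 5.99 in cold and 6.32, 6.55 and 6.43 in control at 5 weeks, then 6.14, 6.43 and 6.33 in cold and 6.31, 6.35 and 7.26 in control at 1 week. The 5-week groups were 0.04 apart at their nearest arrays and the 1-week groups overlapped, with 1 control array at 7.26. Neither difference passed: -0.39 (SE 0.22) at 5 weeks and -0.34 (SE 0.22) at 1 week (adjusted p = 0.21 and 0.24, limma). Blimp-1 is also made by T cells and macrophages.

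The 4 probe sets of Sdc1 did not move together. On 1437279_x_at the signal was 7.07, 7.08 and 7.51 in cold and 7.48, 7.41 and 7.50 in control at 5 weeks, then 6.58, 7.01 and 6.25 in cold and 7.36, 7.64 and 7.51 in control at 1 week. The 5-week groups overlapped and the 1-week groups did not. It fell by 0.89 (SE 0.18) at 1 week, 1.85-fold (adjusted p = 0.0025, limma), with -0.24 (SE 0.18) at 5 weeks (adjusted p = 0.34), and in the cold it was 0.61 higher at 5 weeks than at 1 week (adjusted p = 0.028, limma). With the Gapdh measure as a covariate the 1-week value was -0.53 (adjusted p = 0.11). The rise in the cold did not pass without cold replicate 3 at 5 weeks or cold replicate 1 or 3 at 1 week (adjusted p 0.069 to 0.11).

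Sdc1 1415943_at read 5.89, 5.88 and 5.84 in cold and 6.48, 6.20 and 6.07 in control at 5 weeks, then 5.89, 5.94 and 5.83 in cold and 6.59, 6.41 and 6.46 in control at 1 week. All cold arrays lay below all control arrays of both weeks. It fell by 0.38 (SE 0.11) at 5 weeks and by 0.60 (SE 0.11) at 1 week (adjusted p = 0.019 and 0.0012, limma). The 5-week fall did not pass without cold replicate 3 or control replicate 1 (adjusted p = 0.051 and 0.070), with arrays centred on their median (-0.23, adjusted p = 0.11), with the Gapdh covariate (-0.34, adjusted p = 0.076) or with the 5-week control arrays averaged and counted as 1 (adjusted p = 0.089). The remaining probe sets, 1448158_at and 1415944_at, stayed between 5.40 and 5.93 on all arrays with differences of -0.08 to 0.20, none of which passed. Epithelial cells carry Sdc1 as well. Of 16 epithelial and mesothelial markers, 4 were bright enough to test. At an unadjusted p under 0.05 in limma, 0 of the 4 were lower and 2 higher at each time. By the adjusted p 0 fell and 1 rose at each time. The rises were Cldn3 by 0.61 at 5 weeks and Epcam by 0.30 at 1 week. Among all genes 19.9% fell and 13.9% rose at 5 weeks, and 30.5% fell and 17.1% rose at 1 week. Any part of epithelial cells in the Sdc1 differences was not tested. Krt19, Cdh1, Upk3b and Msln were below log2 4 on every array.

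Counted together, 6 of the 19 tested probe sets fell and 0 rose in the cold at 5 weeks, where 18.5% of all tested probe sets fell and 12.6% rose (at an unadjusted p under 0.05 in limma, 9 and 0 of the 19). At 1 week 8 fell and 1 rose, where 27.2% of all fell and 17.5% rose. The median difference over the 19 was -0.98 at 5 weeks and -0.68 at 1 week, beside -0.02 and -0.04 over all 26510. Centring each array on the median of the tested probe sets moved those overall medians to 0.13 and 0.12, and the counts to 5 lower and 1 higher at 5 weeks and to 7 lower and 3 higher at 1 week. The added rises were Sdc1 1415944_at at both times (0.20 each) and Sdc1 1448158_at at 1 week (0.36). By the plainer rule that all 3 cold arrays lay beyond all 3 controls, 16 of the 19 were lower and 1 higher at 5 weeks (28.5% and 27.1% of all tested probe sets), and 8 were lower and 3 higher at 1 week (29.9% and 27.5%). By the brightest probe set of each gene in the same fit, 1 of the 7 genes fell at 5 weeks (Igha; 19.9% of 12855 genes fell and 13.9% rose) and 4 at 1 week (Igha, Ighm, Pou2af1 and Sdc1; 30.5% fell and 17.1% rose). In tissue RNA, fewer cells of a type and less RNA per cell cannot be told apart.

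**Figure D3:**
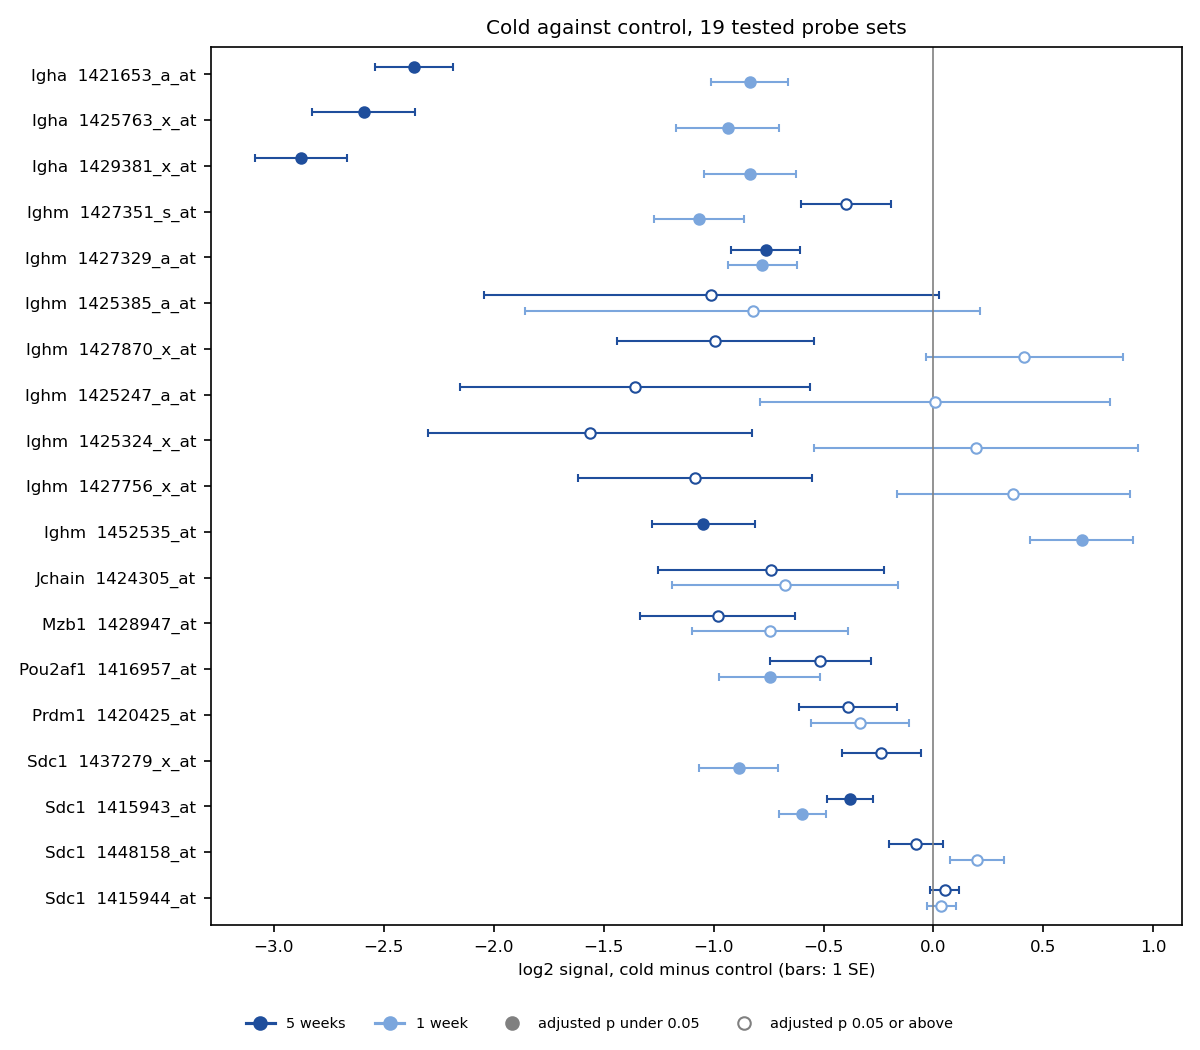
Difference in log2 signal, cold minus control, for the 19 tested probe sets at 5 weeks (dark) and 1 week (light); bars are 1 SE and filled points passed an adjusted p of 0.05. The 3 Igha sets lie at -2.36 to -2.88 at 5 weeks and -0.83 to -0.94 at 1 week, and 4 Ighm sets change sign between the times without passing at 1 week.

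The interaction passed for 4 of the 19, the 3 of Igha and Ighm 1452535_at, all with a more negative cold difference at 5 weeks; 9.47% of all tested probe sets were lower and 10.2% higher by it. Between the weeks, 7 of the 19 rose in the cold (3 of Igha, 3 of Ighm and Sdc1 1437279_x_at) and none fell, against 15.6% higher and 12.8% lower among all. Among the controls 8 of the 19 rose (3 of Igha and 5 of Ighm) and none fell, against 2.12% higher and 1.21% lower. Counted by arrays that do not overlap, 11 of the 19 were higher and 0 lower at 5 weeks in the cold (22.4% and 20.4% of all), and likewise 11 and 0 among controls (12.9% and 17.0% of all). At an unadjusted p under 0.05 in limma, 11 of the 19 were higher and 1 lower at 5 weeks in the cold, and likewise 11 and 1 among controls. Time in the study, age and any difference in handling between the 5-week and 1-week arrays cannot be told apart.

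**Figure D4:**
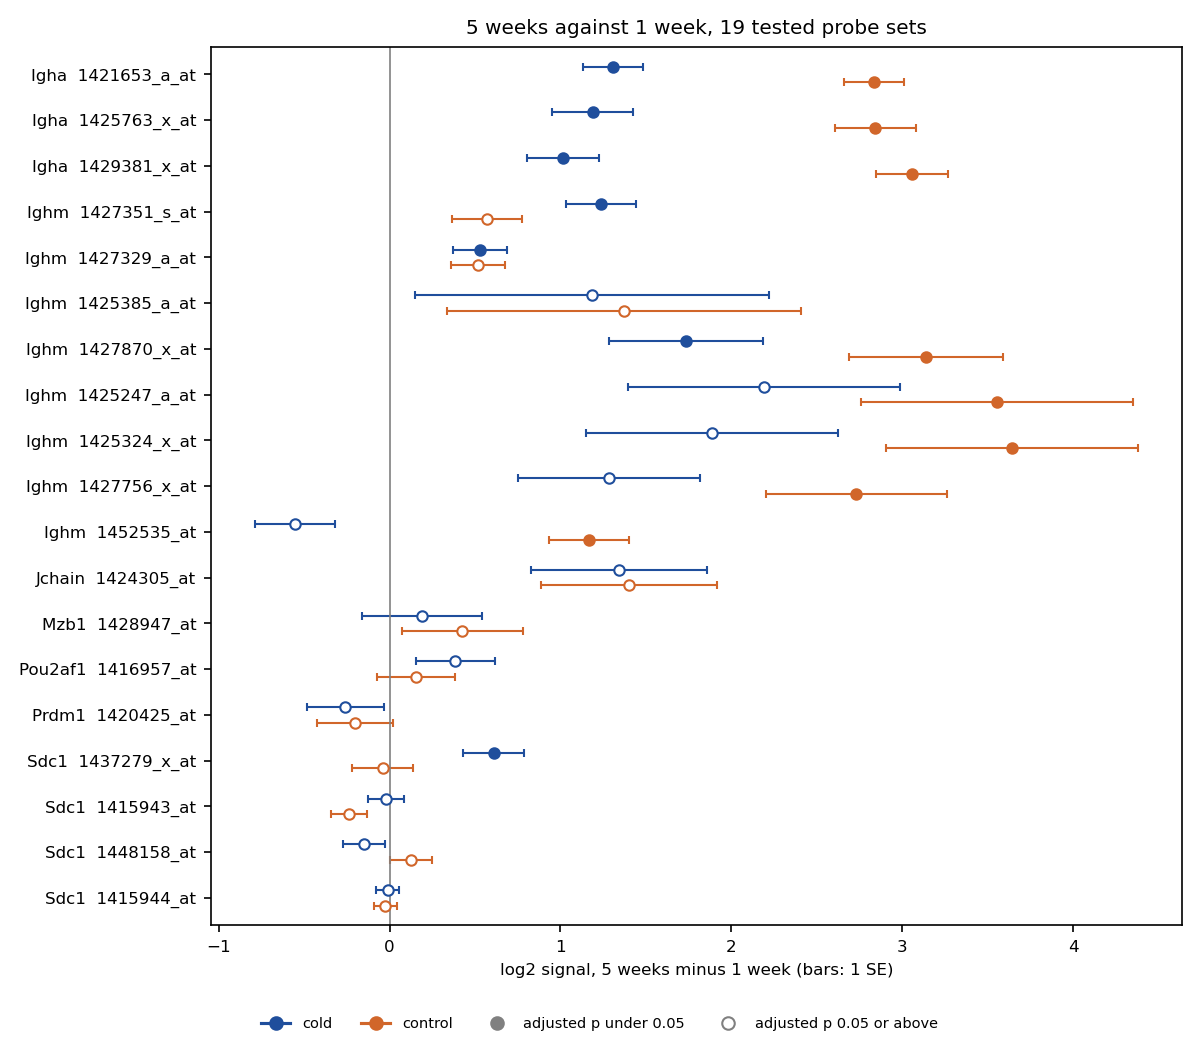
Difference in log2 signal, 5 weeks minus 1 week, for the 19 tested probe sets in the cold (blue) and in controls (orange); bars are 1 SE and filled points passed an adjusted p of 0.05. Igha controls lie at 2.84 to 3.06 and Igha cold arrays at 1.02 to 1.31, whereas Prdm1 lies near 0 in both, at -0.26 in cold and -0.20 in controls.

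Other antibody chains were counted beside Igha and Ighm. Of 38 probe sets for other heavy and light chain genes, some of which name several, 26 were tested. In the cold 11 fell and 0 rose at 5 weeks (17 and 0 at an unadjusted p under 0.05 in limma), and 8 fell and 1 rose at 1 week, with medians of -0.56 and -0.36. Among all tested probe sets 18.5% fell at 5 weeks and 27.2% at 1 week. A kappa light chain probe set, Igk 1425738_at, averaged 6.97 in cold and 9.35 in control at 5 weeks, and 6.75 in cold and 7.12 in control at 1 week. It fell by 2.39 (SE 0.36) at 5 weeks (adjusted p = 0.00075, limma) and its difference at 1 week was -0.37 (adjusted p = 0.43). The kappa variable segment Igkv9-120 fell at both times, by 1.81 and 1.01, and the set for the lambda chains Iglc1 and Iglv1 by 1.91 and 1.22. In the controls 6 of the 26 were higher at 5 weeks than at 1 week, where 2.12% of all probe sets were, and 0 lower (13 and 0 at an unadjusted p under 0.05 in limma).

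Of 18 tested genes of the plasma cell's secretory and surface equipment, 10 fell and 1 rose at 5 weeks and 8 fell at 1 week, with medians of -0.47 and -0.38 (19.9% and 30.5% of all genes fell). Hsp90b1, the endoplasmic reticulum chaperone, fell by 0.75 and 0.92, and Xbp1, the transcription factor of the secretory programme, by 0.52 and 0.62, but fat cells and other secretory cells also make both. Cd27, a receptor of memory B cells, plasma cells and T cells, fell by 1.12 at 5 weeks and 1.69 at 1 week. Sec11c, a subunit of the signal peptidase, fell by 0.43 and 0.88. By limma 0 of the 18 rose or fell between the weeks among controls (1 and 2 at an unadjusted p under 0.05). That is near the shares of all tested probe sets in the same comparison, 2.12% higher and 1.21% lower. The plasma cell markers Tnfrsf17 and Derl3 stayed below log2 3.2 on every array and were not tested.

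Of 12 transcription factors of the step from B cell to plasma cell, 5 fell at 5 weeks, and 6 fell and 1 rose at 1 week (19.9% and 30.5% of all genes fell). The 1 was Bcl6, the germinal centre repressor that opposes Prdm1, with 10.75 in cold and 10.45 in control at 5 weeks (0.30, adjusted p = 0.19) and 10.46 in cold and 9.50 in control at 1 week, a rise of 0.96 (SE 0.16; adjusted p = 0.00088, limma). Which cells of the tissue carried the Bcl6 signal was not tested. Ikzf1, a lymphoid factor, fell by 0.87 and 1.15, and Irf8 fell by 1.08 at 1 week.

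Genes that act on plasma cells or bind their product were tested in small numbers. Cxcl12, the stromal chemokine that holds plasma cells in their niche, averaged 10.91 in cold and 11.71 in control at 5 weeks and 10.55 in cold and 11.77 in control at 1 week. It fell by 0.80 and by 1.22 (SE 0.10 each; adjusted p = 0.00021 and 1.2e-05, limma). Tnfsf13b, the survival factor BAFF, fell by 1.29 at 1 week with -0.36 at 5 weeks (adjusted p = 0.37), and Tgfb1, which drives the switch to IgA, fell by 1.23 at 5 weeks with -0.01 at 1 week (adjusted p = 0.97). In all, 3 of 8 such signals fell at 5 weeks, where 19.9% of all genes fell, and 2 fell at 1 week, where 30.5% of all genes fell, when the homing receptor Ccr9 rose by 0.48 (adjusted p = 0.0034). Il5, Il6, Il10, Il21 and Ccr10 were below log2 4 on every array. Among 8 antibody receptors and transporters 3 fell at 5 weeks and 4 at 1 week, beside the same shares of all genes. Fcgrt, the receptor that recycles IgG, fell by 0.81 at 5 weeks with -0.03 at 1 week (adjusted p = 0.82), and the IgG receptor Fcgr3 fell by 0.81 and 0.76.

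Markers of the cells around plasma cells fell in the same arrays. Of 17 B cell markers 12 fell at 5 weeks and 15 at 1 week, and none rose; their mean signal ran from 8.70 to 8.94 in cold and 9.47 to 9.53 in control at 5 weeks, and from 8.36 to 8.89 in cold and 9.07 to 9.58 in control at 1 week. The B cell receptor subunit Cd79a fell by 1.27 and 0.85 and the surface marker Ms4a1 (CD20) by 0.49 and 0.77. Of 16 T cell markers 13 fell at 5 weeks and 14 at 1 week, with means of 7.85 to 7.91 in cold and 8.82 to 8.89 in control at 5 weeks, and 7.66 to 8.10 in cold and 8.39 to 9.09 in control at 1 week. Of 6 lymph node genes 4 fell at 5 weeks and 3 at 1 week, Cxcl13 by 0.60 and 1.02; their mean was 7.20 to 7.46 in cold and 7.88 to 8.10 in control at 5 weeks, and 7.45 to 7.77 in cold and 8.01 to 8.14 in control at 1 week. Of 10 macrophage markers 9 fell at each time. The shares of all genes that fell, 19.9% at 5 weeks and 30.5% at 1 week, stand beside each of these lists. Cold replicate 2 at 1 week had the highest B cell, T cell and lymph node mean of its group, as it had the highest Jchain and Mzb1 signal.

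**Figure D5:**
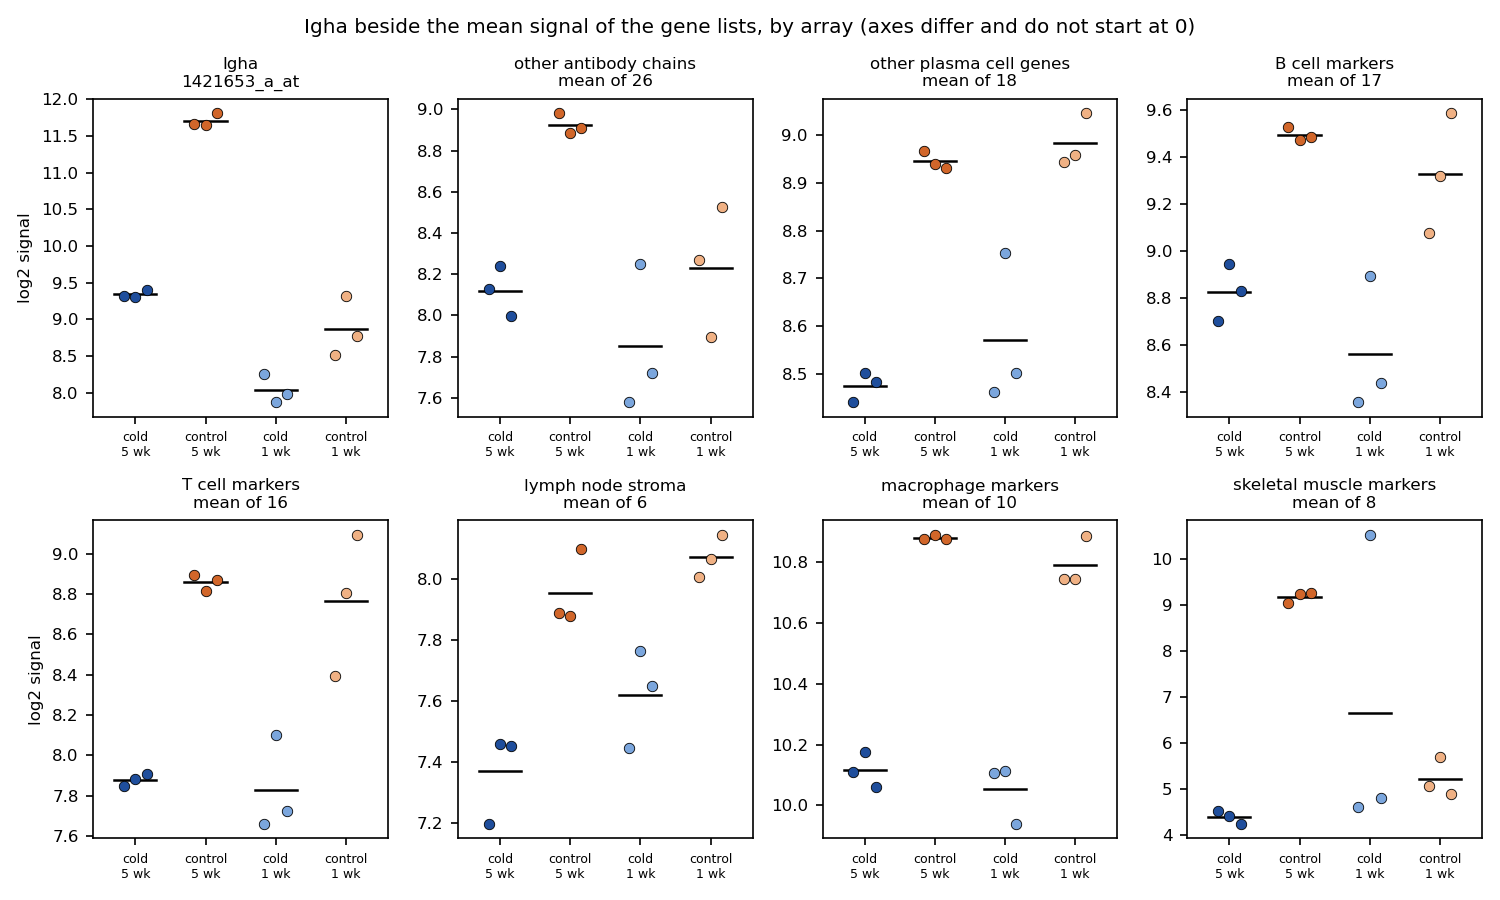
Log2 signal of Igha 1421653_a_at and the mean log2 signal of 7 gene lists on the 12 arrays; points are arrays, black lines are means of 3 arrays, and the vertical axes differ and do not start at 0. B cell, T cell, lymph node and macrophage means are lower in cold at both times, and the B cell means of the 5-week controls (9.47 to 9.53) lie within those of the 1-week controls (9.07 to 9.58), whereas the Igha arrays of these groups lie apart.

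The rise of Igha among controls stood beside B cell markers that did not pass. By limma 0 of the 17 rose or fell between 5 weeks and 1 week among controls (0 and 0 at an unadjusted p under 0.05), with a median difference of 0.21. Over all tested probe sets 2.12% rose and 1.21% fell in that comparison, so 0 of 17 is near those shares. The skeletal muscle mean did stand apart between these controls, at 9.03 to 9.26 at 5 weeks and 4.89 to 5.70 at 1 week. It was not fitted as a covariate, and the cause of the Igha rise was not tested. When the mean of the B cell list was added to the model as a covariate, a step chosen after the data were seen, the 5-week cold difference of Igha 1421653_a_at was -2.44 (adjusted p = 0.0043, limma) its difference of 5 weeks from 1 week among controls was 2.85 (adjusted p = 0.00021), and the 3 interaction terms of Igha still passed (adjusted p 0.0062 to 0.011). The 1-week difference was -0.92 (SE 0.35) and no longer passed (adjusted p = 0.14, limma), against -0.84 (SE 0.18) without the covariate. The difference of this probe set was thus no smaller, but its SE was wider. For 1425763_x_at and 1429381_x_at the 1-week difference was -0.94 and -0.83 without the covariate. With it the values were -0.52 and -1.08 (adjusted p = 0.55 and 0.14, limma). With the mean of the T cell list instead, the 5-week difference of 1421653_a_at was -2.24 (adjusted p = 0.028) and its 1-week difference -0.72 (adjusted p = 0.36). The 1-week difference was then -0.38 for 1425763_x_at and -0.78 for 1429381_x_at (adjusted p = 0.77 and 0.42, limma). Under the B cell covariate 3 of the 19 probe sets fell at 5 weeks, the 3 of Igha, and none fell at 1 week, where Ighm 1427870_x_at rose by 2.27 (adjusted p = 0.043). Calls over all 26510 probe sets were 1437 at 5 weeks and 2078 at 1 week with that covariate, against 8254 and 11847 without it. The 1-week difference of Pou2af1 turned to 0.27 (adjusted p = 0.62) with the B cell mean and to 0.38 (adjusted p = 0.60) with the T cell mean.

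The genes nearest in pattern were found by the root mean square difference between log2 profiles centred on their own mean over the 12 arrays, with no test. For Igha they were Dbp (0.582), Igk (0.735) and Prr32 (0.770), and for Mzb1 the kappa segment Igkv8-30 (0.222), Pclaf (0.239) and Slc25a12 (0.249). Jchain was nearest to Slpi (0.532), Igkv6-20 (0.537) and Cachd1 (0.567), and Ighm 1427351_s_at to St6galnac5 (0.199), Cdsn (0.259) and Crtc3 (0.262). Pou2af1 lay closer to its neighbours, Fcrl1 (0.118), a B cell receptor of the Fc receptor-like family, Mcm7 (0.125) and Cyfip2 (0.131). Prdm1 had 9430015G10Rik (0.164), Apol11b (0.167) and Ctla4 (0.167), and Sdc1 1437279_x_at had Ripk3 (0.0808), Rab7b (0.112) and Kdm2b (0.113). Between members, the 3 Igha sets were 0.206 to 0.280 apart, Pou2af1 and Sdc1 1437279_x_at 0.215, and Pou2af1 and Mzb1 0.281.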

How the data were processed

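Per the submitters' processing notes the authors processed the arrays with GCRMA, which corrects background, normalizes between arrays and summarises probe sets; the labels and notes used here record no version. The deposited table holds log2 signals of 45101 probe sets, 64 of them controls, on 12 arrays, with 0 missing values, and 0 columns of samples outside the series were left unused. Symbols came from the platform annotation, updated through gene identifiers; 34958 probe sets name 1 gene, 932 several and 9211 none.

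Non-control probe sets above log2 4 on at least 3 arrays (26510) were fitted with limma 3.58.1 in R 4.3.3, using lmFit and eBayes on 4 group means (2-sided), with Benjamini-Hochberg adjustment over all of them at 0.05. The comparisons were the cold effects at 5 weeks and at 1 week, their difference, and 5 weeks against 1 week in each treatment. The fit was first tested on simulated data. Python 3.11.15 was used for counts and matplotlib 3.10.9 for plots. The number of arrays limits the precision.

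The named genes were every probe set of the 7 members, up to 4 genes per list with the smallest adjusted p in either cold contrast, and the 3 genes nearest in pattern to each member; Cd79a, Ms4a1, Krt19, Cdh1, Upk3b and Msln were added as defining markers. Members and lists were chosen with earlier results of these data known. For each listed gene the brightest tested probe set was used. Alternatives changed the filter, scaling, unit of test, variance model, RNA quality covariate, replicate block and arrays included. Replicate numbers in the titles did not pair arrays: deviations of same-numbered arrays correlated at -0.17 to 0.16. Labels used here give no scan or extraction batch. Lck and Plin1 were not analysed here.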

Additional observations from a re-analysis of the deposited data

Results flagged for a closer look

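The cold difference of Igha changed between the times by a test of the difference itself. At 5 weeks minus 1 week it was -1.53 for 1421653_a_at, -1.66 for 1425763_x_at and -2.04 for 1429381_x_at. The same test picked out Ighm 1452535_at at -1.72, where the cold arrays lay below the controls at 5 weeks and above them at 1 week. Of these 4 results, 3 rest on Igha probe sets that may bind the same transcript, and all 4 use the same arrays.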

How the results depend on the processing

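The counts of the 19 probe sets that passed were 6 (cold, 5 weeks), 9 (cold, 1 week), 4 (interaction), 7 (weeks, cold) and 8 (weeks, control). In a refit on 1 probe set per gene they were 2, 4, 1, 3 and 1 of 7. With the Gapdh measure as a covariate they were 3 at 1 week, 0 for the interaction and 3 for weeks in controls; that interaction passed for 5 of 26510 probe sets in all. With the control arrays at 5 weeks averaged and counted as 1 they were 3 at 5 weeks, 0 for the interaction and 3 for weeks in controls; the fit then had fewer samples. With no filter 4 passed for weeks in controls, over more probe sets tested. The B cell and T cell covariates, added after the data were seen, gave 3 and 2 at 5 weeks and 1 and 1 at 1 week, while calls over all probe sets were 1437 and 583 at 5 weeks (8254 without) and 2078 and 540 at 1 week (11847 without), and reversed Pou2af1 at 1 week (0.27 and 0.38). With a replicate block the counts were 6, 9, 4, 7 and 6; the numbers do not pair the arrays. Leaving out 1 array gave 5 to 6 at 5 weeks, 7 to 9 at 1 week, 4 to 5 for the interaction, 4 to 13 for weeks in the cold and 4 to 9 for weeks in controls. The 13 came without cold replicate 2 at 1 week, and 4 without cold replicate 3 at either time; in controls 4 came without any 1 of the 5-week arrays or replicate 2 at 1 week. The 3 Igha falls at 5 weeks passed under every alternative but 1: 1425763_x_at with the T cell covariate (-2.01, adjusted p = 0.070). Apart from the values given, the cause was not tested. With 3 arrays a group, and no record of separate animals, p-values cover the spread between arrays alone.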
